A study of Mus musculus with 11 samples.

Results

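The tumor necrosis factor (TNF) superfamilies comprise trimeric ligands and the receptors that bind them. They were followed here as the 41 genes whose symbol is Tnf, Lta, Ltb, Ltbr, Fas, Fasl, Cd27, Cd40, Cd40lg, Cd70 or one of the numbered Tnfsf (ligand) and Tnfrsf (receptor) symbols, of 24320 genes in the deposited table. Of these, 17 encode ligands and 24 encode receptors. The rule uses symbols, so Eda, Edar, Eda2r, Ngfr and Relt, which belong to the families under other names, were counted apart. RNA was sequenced from 4 NRAS tumors, 4 PDGFB tumors and 3 normal brains of mice, and levels are given as FPKM, which divides fragment numbers by the transcript's length and by the size of the library. Tumors were raised with the Sleeping Beauty system, in which a transposase inserts plasmid genes into the genome of host cells. Plasmids for the SB transposase, firefly luciferase and SV40LgT (a viral T antigen that binds p53 and Rb) went into the right lateral ventricle of newborn mice, together with NRASG12V (a constitutively active GTPase of the MAPK pathway) for NRAS tumors or PDGFB (a growth factor for oligodendrocyte progenitors) for PDGFB tumors. Both tumor models thus carry SV40LgT, and the normal brains are labelled as wild type controls. Tumor tissue was dissected under GFP light at a middle stage, with no age given. The strain is FVB in the series text, but B6 in the sample labels of every library except normal brain 3, which is labelled FVB.

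TNF superfamily ligands are mostly made as membrane proteins and can be cut from the cell surface. Death domain receptors such as Tnfrsf1a and Fas recruit adaptors that lead to caspase 8 or to RIPK kinases, TRAF-binding receptors such as Tnfrsf1b, Cd40 and Ltbr activate NF-κB through TRAF adaptors, and decoy receptors bind ligand without signaling. In the brain, glia express several of the receptors, and in inflamed tissue lymphocytes and myeloid cells are known sources of many ligands and of costimulatory receptors such as Tnfrsf4, Tnfrsf9 and Tnfrsf18.

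Promoter windows were read from RefSeq (build GRCm38.p6) for 31 of the 41 members, 35 windows in all, each running from 250 bases before an annotated start site to 50 bases after it. The 10-letter NF-κB consensus (κB) and the AP-1 heptamer TGANTCA were searched on both strands. A κB match was found for 3 of the 31 members (Ltb, Tnfrsf8 and Tnfrsf9), in 3 of the 35 windows, against 4.51% of all 32851 windows. An AP-1 match was found for 6 members (Fas, Tnfrsf8, Tnfrsf9, Tnfsf13, Tnfsf13b and Tnfsf14), in 7 of the 35 windows, against 7.81% of all windows. Windows are shown for Ltb, Tnfrsf9 and Fas, a ligand, a TRAF-binding receptor and a death domain receptor whose levels separate the NRAS tumors from both other groups below. Capitals mark the matches, and all 3 windows lie on the plus strand.
Ltb, chr17:35194257-35194556: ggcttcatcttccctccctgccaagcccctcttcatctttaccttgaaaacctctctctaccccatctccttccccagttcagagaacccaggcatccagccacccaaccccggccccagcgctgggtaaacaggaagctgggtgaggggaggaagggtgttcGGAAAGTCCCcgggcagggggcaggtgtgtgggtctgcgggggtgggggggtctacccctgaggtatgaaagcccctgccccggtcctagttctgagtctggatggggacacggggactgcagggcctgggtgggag
Tnfrsf9, chr4:150927749-150928048: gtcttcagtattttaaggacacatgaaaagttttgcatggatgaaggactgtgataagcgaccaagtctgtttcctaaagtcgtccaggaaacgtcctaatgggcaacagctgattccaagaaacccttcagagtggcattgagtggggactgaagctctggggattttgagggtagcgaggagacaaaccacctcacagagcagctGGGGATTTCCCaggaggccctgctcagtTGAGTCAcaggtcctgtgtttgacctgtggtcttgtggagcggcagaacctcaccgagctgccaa
Fas, chr19:34290409-34290708: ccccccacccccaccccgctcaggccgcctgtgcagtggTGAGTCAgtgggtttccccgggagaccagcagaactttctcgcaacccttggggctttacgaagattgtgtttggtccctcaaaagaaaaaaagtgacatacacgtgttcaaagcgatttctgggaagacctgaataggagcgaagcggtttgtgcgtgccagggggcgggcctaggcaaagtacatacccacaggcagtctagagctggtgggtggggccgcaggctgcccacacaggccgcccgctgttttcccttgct
The κB match of Ltb begins 87 bases before the start site. In Tnfrsf9, overlapping κB matches begin 43 and 42 bases before it and the AP-1 match 15 bases before it, while the other annotated window of this gene, at 150919905 to 150920204, holds neither. The AP-1 match of Fas begins 211 bases before the start site. The windows of Tnfrsf1a, Tnfrsf12a, Ltbr, Tnfrsf1b and Tnfrsf18 hold neither motif. Nor do those of Lta, Tnfrsf4, Tnfrsf14, Tnfrsf23, Tnfsf8 and Tnfsf10. The latter, like Ltb, Tnfrsf9, Fas, Tnfrsf1b and Tnfrsf18, were higher in NRAS tumors than in both other groups. Tnfrsf8, whose window holds both motifs, passed in no comparison when fitted without a filter on low values. A match is a string of letters and does not show binding.

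The transgene targets followed the labels. Nras had 154, 139, 120 and 82.0 FPKM in NRAS tumors 1 to 4, against 31.7 to 42.9 FPKM in PDGFB tumors and 13.01 to 17.5 FPKM in normal brains, and Pdgfb had 745 to 1564 FPKM in PDGFB tumors, against 5.15 to 7.80 FPKM in NRAS tumors and 6.12 to 7.19 FPKM in normal brains. Relative depth, read from the steps of low values, ran from 0.776 in normal brain 3 to 1 in NRAS tumor 1, and 12705 to 13923 genes per library reached 1 FPKM. The tissues were bulk, so more cells of a type and more RNA per cell cannot be told apart. Summed markers of T and NK cells (15 genes) summed to 38.8, 14.9, 83.6 and 227 FPKM in NRAS tumors 1 to 4, against 1.67 to 3.15 FPKM in PDGFB tumors and 4.73 to 9.41 FPKM in normal brains, where Cd3d, Cd3e and Cd8b1 were listed at 0. Markers of monocytes and macrophages (9 genes) summed to 480, 107, 932 and 440.2 FPKM in NRAS tumors 1 to 4, against 5.70 to 10.8 FPKM in PDGFB tumors and 3.34 to 3.92 FPKM in normal brains, where Chil3 was listed at 0. Neutrophil markers (8 genes in the table) summed to 11.3 to 68.6 FPKM in NRAS tumors, against 3.10 to 6.42 FPKM in PDGFB tumors, where Camp was listed at 0, and 3.06 to 4.10 FPKM in normal brains, where Mmp8 was. Dendritic cell markers (5 genes) summed to 5.21 to 17.7 FPKM in NRAS tumors and 1.64 to 2.84 FPKM in PDGFB tumors, against 5.70 to 6.90 FPKM in normal brains. B and plasma cell markers (7 genes) reached 7.98 FPKM in NRAS tumors, 3.15 FPKM in PDGFB tumors and 1.07 FPKM in normal brains. Homeostatic microglia markers (8 genes) summed to 227 to 405 FPKM in NRAS tumors, against 95.1 to 215 FPKM in PDGFB tumors and 131 to 157 FPKM in normal brains. Oligodendrocyte progenitor markers (6 genes) summed to 153 to 741 FPKM in NRAS tumors and 1268 to 1561 FPKM in PDGFB tumors, against 111 to 191 FPKM in normal brains. Neuron markers (7 genes) summed to 195 to 1066 FPKM in NRAS tumors and 96.8 to 576 FPKM in PDGFB tumors, against 1965 to 2456 FPKM in normal brains. The labelled tissues thus carry the markers of brain cells in all 3 groups, and markers of T cells and macrophages are high in NRAS tumors. The part of these cells in the results below was not tested.

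**Figure D1:**
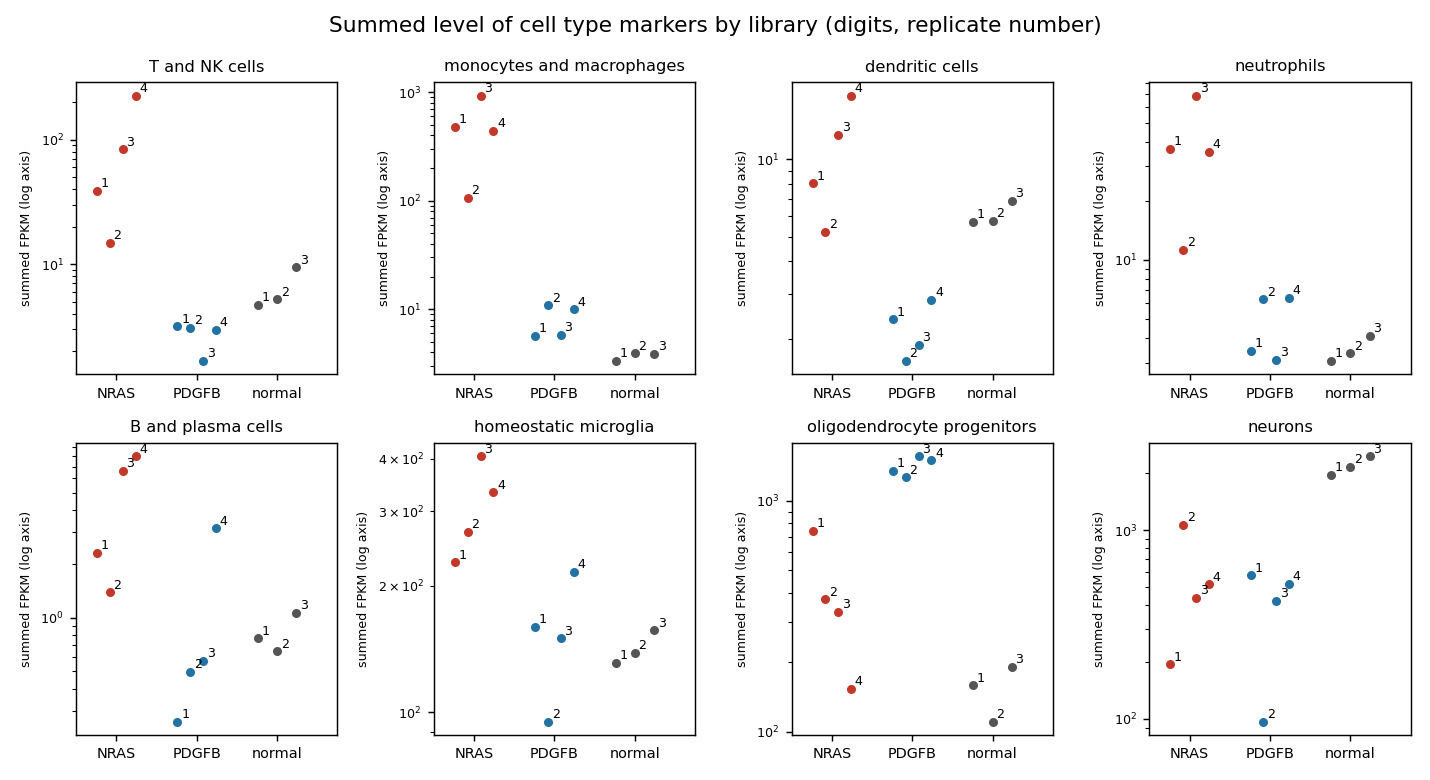
Summed FPKM (log axis) of cell type marker lists in each library, with the NRAS tumors on the left of each panel, then the PDGFB tumors, then the normal brains, and digits giving the replicate number. T and NK cell markers range from 14.9 to 227 FPKM in NRAS tumors and stay under 10 FPKM in every other library.

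NRAS tumors expressed more of the superfamilies than the other groups. Means of at least 1 FPKM were reached by 30 members in NRAS tumors and 15 in PDGFB tumors, against 12 in normal brains, and means of at least 10 FPKM by 12 members in NRAS tumors and 5 in PDGFB tumors, against 2 in normal brains (Tnfrsf19 and Tnfrsf21). Over all 41 members, summed FPKM was 341, 322, 537 and 459 in NRAS tumors 1 to 4 and 194, 224, 229 and 237 in PDGFB tumors 1 to 4, against 84.3, 81.4 and 89.9 in normal brains 1 to 3. Receptors made up most of this sum, and ligands accounted for 30.7 to 81.8 FPKM of it in NRAS tumors and 13.5 to 21.2 FPKM in PDGFB tumors, against 10.2 to 10.4 FPKM in normal brains. The sums of the 3 groups do not overlap for all members, for receptors or for ligands. Such sums rest mostly on the most abundant members. In PDGFB tumors Tnfrsf12a, Tnfrsf1a and Ltbr averaged 57.7, 53.3 and 24.5 FPKM, against 5.49, 5.28 and 4.09 FPKM in normal brains.

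**Figure D2:**
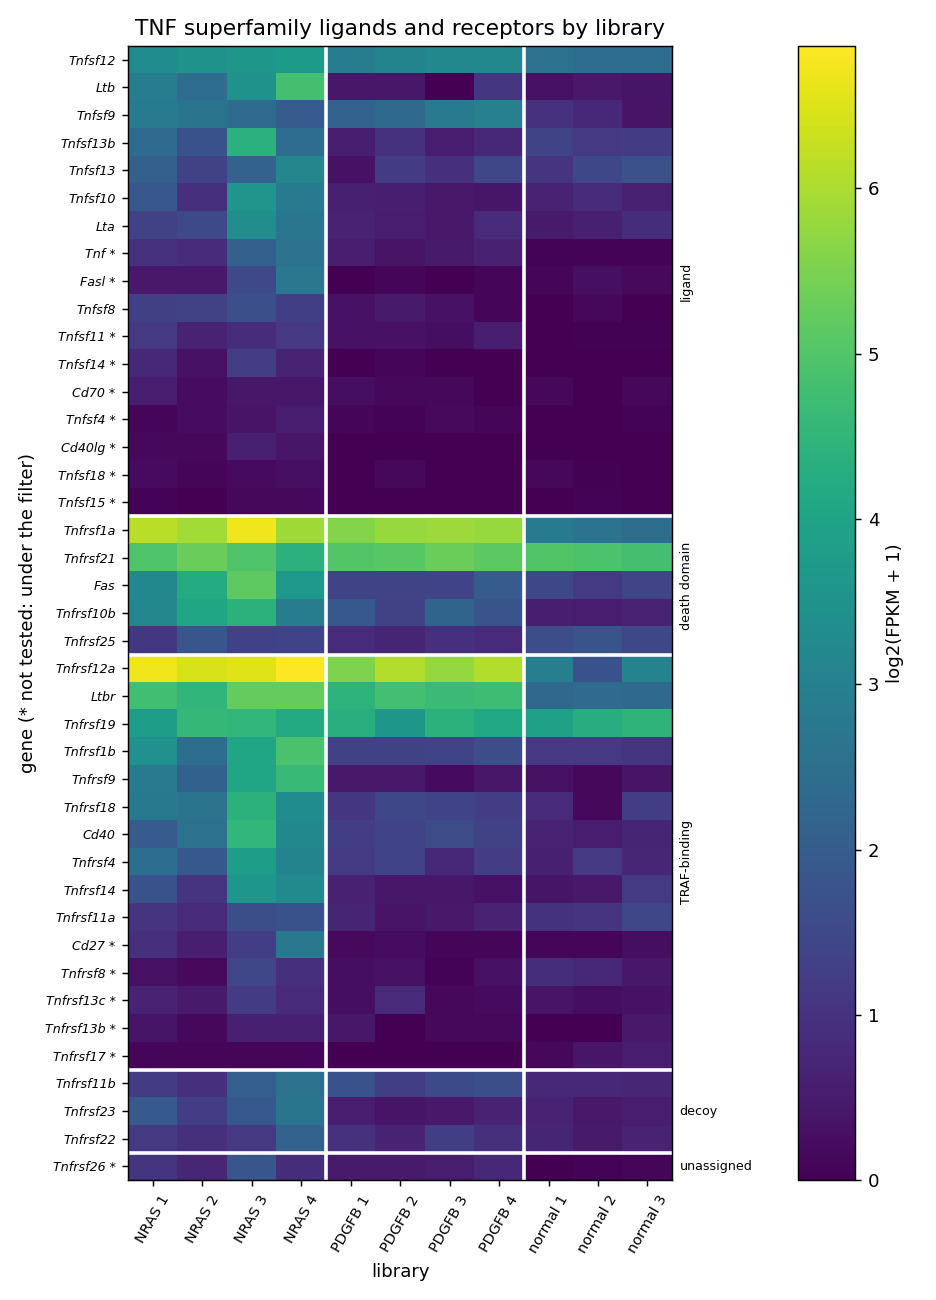
Level of each of the 41 members, as log2(FPKM + 1), in the 11 libraries, with NRAS tumors on the left, PDGFB tumors in the middle and normal brains on the right, and members grouped by role. An asterisk marks the 15 members under the filter on low values. Tnfrsf12a, Tnfrsf1a and Ltbr are bright in all 8 tumors and dimmer in the normal brains, while Tnfrsf19 and Tnfrsf21 are bright in all 11 libraries.

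A test was made for the 26 members with at least 1 FPKM in at least 3 libraries (8 ligands and 18 receptors), in a limma fit of log2(FPKM + 1) over all genes with Benjamini-Hochberg adjustment and a threshold of 0.05. For 11 of the 26, no normal brain reached 1 FPKM, so they entered through tumor libraries and their direction against normal brain was largely set by the filter. In NRAS tumors against normal brain, 21 of the 26 were higher and 0 lower, where 32% of all 14491 genes tested were higher and 30.3% lower (62.3% either way). The 5 others did not pass. All 4 NRAS tumors lay above all normal brains for 20 of the 26, where this held for 33.2% of all genes. The median log2 fold change was 1.66 over the 26 members and 0.01 over all genes. In PDGFB tumors against normal brain, 6 were higher and 2 lower, where 29.3% of all genes were higher and 29.2% lower (58.5% either way), and the median was 0.25 over the members and 0.04 over all genes. All PDGFB tumors lay above all normal brains for 10 members, where this held for 33.8% of all genes, and below them for 4, where this held for 32%. The share of members higher in PDGFB tumors is thus near that of all genes. In NRAS against PDGFB tumors, 18 were higher and 0 lower, where 14.3% of all genes were higher and 12.2% lower (26.6% either way), with a median of 1.30 over the members and −0.04 over all genes. Without overlap, 19 members lay above the PDGFB tumors, where this held for 12.9% of all genes. The difference was at least 1 for 15 members, where 9.31% of all genes were higher by that much. Against both other groups, NRAS tumors were higher for 15 members (10.1% of all genes), 13 of which were not called in PDGFB tumors against normal brain (7.67% of all genes). Each of these counts (18, 19, 15, 15 and 13) holds Lta, Tnfrsf9, Tnfrsf23, Tnfsf8 and Tnfsf10, which reached 1 FPKM in no PDGFB tumor and no normal brain. These 5 passed the filter through NRAS tumors alone and so had to differ. Ltb, Tnfrsf14 and Tnfrsf22 reached 1 FPKM in fewer than 3 of the PDGFB tumors and normal brains, so they too passed only with NRAS tumors. Of these 8 members, 7 are in the counts of 18, 15, 15 and 13. The counts are thus a description of the members that passed, not of all 41. At an unadjusted limma p under 0.05, too, 0 tested members were lower in NRAS tumors than in either other group, although quantile normalization called 1 lower against normal brain (Tnfrsf25) and array weights 1 lower against PDGFB tumors (Tnfrsf21). All 3 comparisons share libraries, and the first and second share the normal brains.

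By role, 7 of 8 tested ligands, 3 of 5 death domain receptors, 8 of 10 TRAF-binding receptors and 3 of 3 decoy receptors exceeded normal brain in NRAS tumors. Of all genes, 32% did. No normal brain reached 1 FPKM for 5 of these ligands, 1 death domain receptor, 2 TRAF-binding receptors and all 3 decoys. Their direction against normal brain was thus largely set by the filter. In PDGFB tumors against normal brain, 2 of the ligands, 2 of the death domain receptors, 2 of the TRAF-binding receptors and 0 of the decoys were higher (1 decoy at an unadjusted limma p under 0.05). Of all genes, 29.3% were higher there. Against PDGFB tumors, NRAS tumors were higher for 7 ligands, 3 death domain receptors, 7 TRAF-binding receptors and 1 decoy, where 14.3% of all genes were higher. Among these, the ligands Lta, Ltb, Tnfsf8 and Tnfsf10 passed the filter only with NRAS tumors. So did the TRAF-binding receptors Tnfrsf9 and Tnfrsf14 and the decoy Tnfrsf23. Tnfrsf19 and Tnfrsf21 passed in none of the 3 comparisons, as did 22.1% of all genes.

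**Figure D3:**
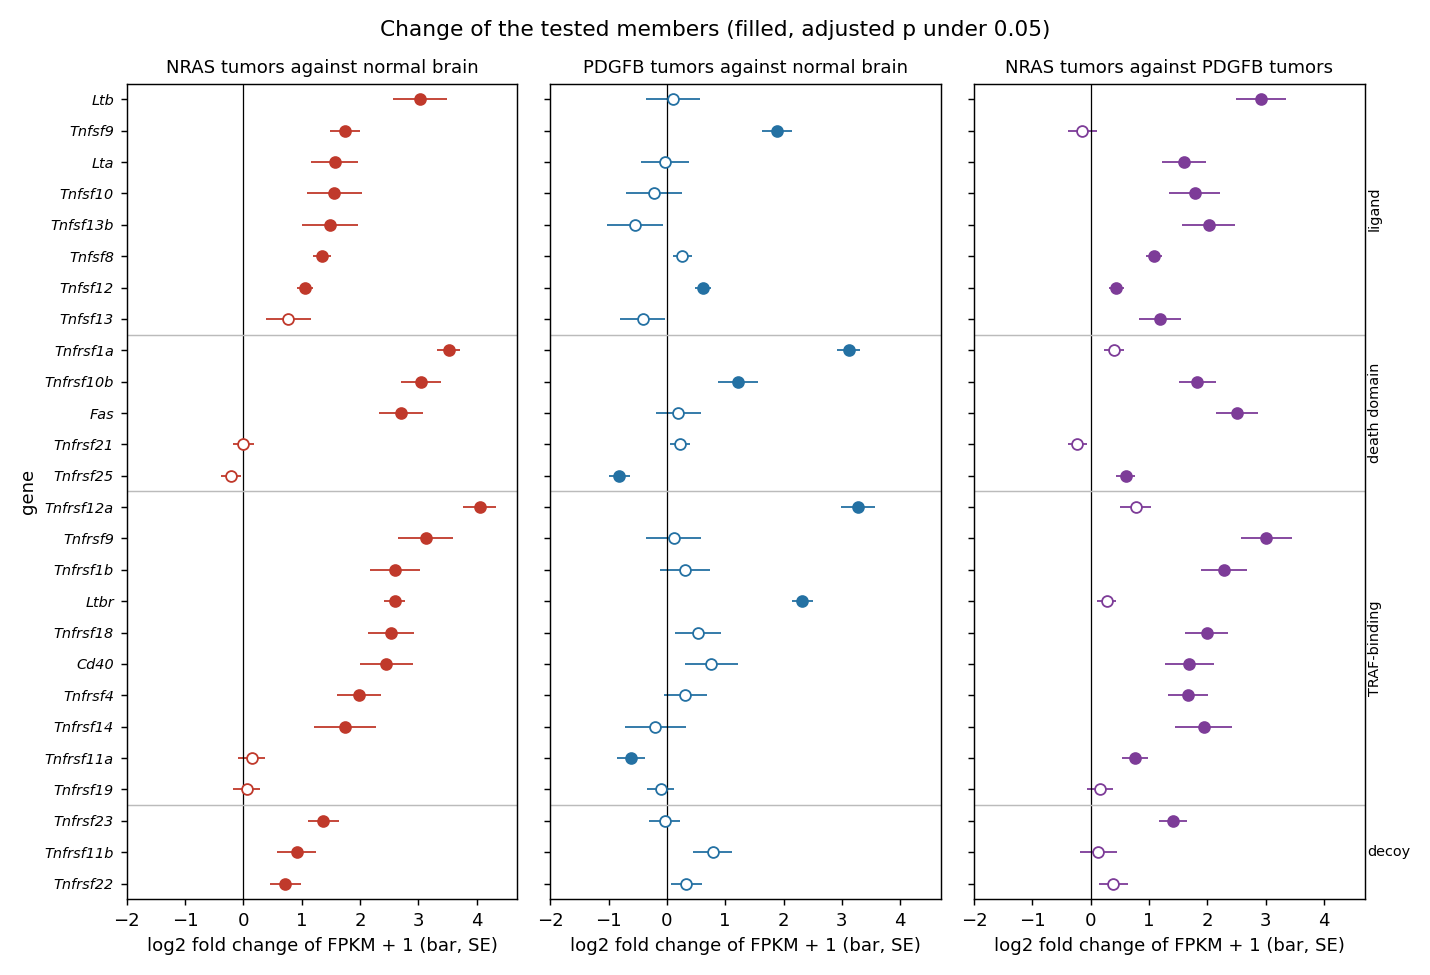
Log2 fold change of FPKM + 1 for the 26 tested members in each comparison, with bars for the SE and filled points for an adjusted p under 0.05. In the NRAS panel against normal brain 21 points are filled, in the PDGFB panel 8, and between the models 18, all of these to the right of 0 except 2 in the PDGFB panel.

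Among the ligands, Tnfsf12 (TWEAK, the ligand of Tnfrsf12a) and Tnfsf9 (the ligand of the costimulatory receptor Tnfrsf9) were higher in both tumor models, as were 21.2% of all genes. Tnfsf12 had 9.15, 10.2, 11.5 and 12.3 FPKM in NRAS tumors 1 to 4 and 6.54, 7.58, 8.17 and 8.29 FPKM in PDGFB tumors 1 to 4, against 4.89, 4.49 and 4.48 FPKM in normal brains 1 to 3. The 3 groups do not overlap, with NRAS tumors highest and normal brains lowest. Its log2 fold change was 1.06 (SE 0.14, adjusted p = 0.000154) in NRAS tumors and 0.62 (SE 0.14, adjusted p = 0.00291) in PDGFB tumors against normal brain, and the second did not pass when the range of title numbers was a covariate (0.35, adjusted p = 0.219). The number in a library's title falls in 1 of 2 ranges, 1834 to 1838 (NRAS tumors 1 and 2 and the normal brains) or 2038 to 2046 (NRAS tumors 3 and 4 and the PDGFB tumors). The difference of 0.44 between the models (SE 0.13, adjusted p = 0.0259) lost its call when any of NRAS tumors 3 and 4 and PDGFB tumors 1, 2 and 3 was left out (adjusted p = 0.0509 to 0.0751). Tnfsf9 had 5.99, 5.24, 4.23 and 2.90 FPKM in NRAS tumors 1 to 4 and 3.49, 4.18, 6.08 and 6.97 FPKM in PDGFB tumors 1 to 4, against 0.953, 0.730 and 0.278 FPKM in normal brains 1 to 3. The tumor groups overlap each other and lie above all normal brains. Tnfsf9 differed from normal brain by 1.75 (SE 0.26, adjusted p = 0.000327) in NRAS tumors and 1.89 (SE 0.26, adjusted p = 0.000192) in PDGFB tumors on the log2 scale, and the difference between the models was −0.14 (SE 0.24, adjusted p = 0.712). A noncoding gene on the opposite strand shares exon bases with Tnfsf9, and whether reads were counted by strand is not stated. Such an overlap also holds for Tnfrsf18, Tnfrsf23, Tnfrsf26 and Tnfsf13.

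The lymphotoxin ligands, which form the heterotrimer that binds Ltbr, were higher in NRAS tumors than in both other groups. Both passed the filter on low values only with NRAS tumors, so the direction of these calls was largely set by it. Ltb had 6.31, 4.49, 10.4 and 27.3 FPKM in NRAS tumors 1 to 4 and 0.364, 0.358, 0 and 1.11 FPKM in PDGFB tumors 1 to 4, against 0.234, 0.380 and 0.319 FPKM in normal brains 1 to 3. Every NRAS tumor lies above every other library, and the PDGFB tumors and normal brains overlap. The log2 fold change of Ltb was 3.03 (SE 0.46, adjusted p = 0.000362) against normal brain and 2.92 (SE 0.43, adjusted p = 0.00121) against PDGFB tumors. Lta had 1.56, 1.88, 9.20 and 5.47 FPKM in NRAS tumors 1 to 4 and 0.610, 0.436, 0.383 and 0.794 FPKM in PDGFB tumors 1 to 4, against 0.416, 0.521 and 0.850 FPKM in normal brains 1 to 3. Again the NRAS tumors do not overlap with the others, and NRAS tumors 3 and 4 are the highest. Lta was higher in NRAS tumors by 1.57 (SE 0.41, adjusted p = 0.0066) against normal brain and by 1.60 (SE 0.38, adjusted p = 0.0107) against PDGFB tumors. Ltb, Tnf and Lta lie side by side on chromosome 17, from 35194439 to 35205351 of GRCm38.

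Tnfsf10 (TRAIL, which triggers death receptors), Tnfsf13b (BAFF, a survival factor of B cells) and Tnfsf13 (APRIL, which binds receptors of B and plasma cells) were higher in NRAS than in PDGFB tumors. Tnfsf10, and Tnfsf8 below, reached 1 FPKM in no PDGFB tumor and no normal brain. Both passed the filter through NRAS tumors alone and so had to differ. Tnfsf10 had 2.60, 0.904, 10.96 and 6.15 FPKM in NRAS tumors 1 to 4 and 0.520, 0.497, 0.388 and 0.322 FPKM in PDGFB tumors 1 to 4, against 0.617, 0.837 and 0.554 FPKM in normal brains 1 to 3. NRAS tumor 2 lies just above the highest normal brain, and all PDGFB tumors lie below all normal brains. In NRAS tumors the log2 fold change of Tnfsf10 was 1.56 (SE 0.48, adjusted p = 0.0149) against normal brain and 1.78 (SE 0.44, adjusted p = 0.0134) against PDGFB tumors, and in PDGFB tumors it was −0.22 (SE 0.48, adjusted p = 0.717). Tnfsf13b had 4.26, 2.29, 20.02 and 4.46 FPKM in NRAS tumors 1 to 4 and 0.484, 0.994, 0.434 and 0.714 FPKM in PDGFB tumors 1 to 4, against 1.65, 1.19 and 1.35 FPKM in normal brains 1 to 3. The 3 groups do not overlap, and NRAS tumor 3 stands far above the rest of its group. For Tnfsf13b the change was 1.48 (SE 0.48, adjusted p = 0.0201) in NRAS tumors against normal brain, 0.93 (adjusted p = 0.00608) without NRAS tumor 3, and past the threshold no longer without normal brain 2 or 3 (adjusted p = 0.0608 and 0.0545). Against PDGFB tumors it was 2.02 (SE 0.45, adjusted p = 0.00804). Tnfsf13 had 3.33, 1.52, 3.44 and 7.77 FPKM in NRAS tumors 1 to 4 and 0.261, 1.34, 0.940 and 1.76 FPKM in PDGFB tumors 1 to 4, against 1.07, 1.78 and 2.24 FPKM in normal brains 1 to 3. NRAS tumor 2 overlaps with both other groups. Its change was 0.77 (SE 0.39, adjusted p = 0.102) in NRAS tumors against normal brain and 1.19 (SE 0.36, adjusted p = 0.0312) against PDGFB tumors. This last call was lost without NRAS tumor 3 or 4 or PDGFB tumor 1 or 3 (adjusted p = 0.0627 to 0.0843). Tnfsf12 and Tnfsf13 share exons with Tnfsfm13, a fused transcript with a row of its own at 0.264 to 3.11 FPKM, so the split of reads between the 3 rows is uncertain. The remaining tested ligand, Tnfsf8 (which binds Tnfrsf8, CD30), had 1.43 to 2.21 FPKM in NRAS tumors and 0.0623 to 0.417 FPKM in PDGFB tumors, against 0, 0.102 and 0 FPKM in normal brains, and was higher in NRAS tumors by 1.35 against normal brain (SE 0.16, adjusted p = 7.78e-05) and by 1.09 against PDGFB tumors (SE 0.15, adjusted p = 0.000808).

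Of the death domain receptors, Tnfrsf1a (the main receptor of soluble TNF) was the highest member of this class in every tumor. Tnfrsf1a had 70.5, 58.7, 104 and 57.8 FPKM in NRAS tumors 1 to 4 and 47.0, 55.0, 56.5 and 54.6 FPKM in PDGFB tumors 1 to 4, against 6.20, 5.13 and 4.52 FPKM in normal brains 1 to 3. The tumor groups lie far above the normal brains and just do not overlap each other. Its log2 fold change against normal brain was 3.52 (SE 0.19, adjusted p = 7.16e-07) in NRAS tumors and 3.12 (SE 0.19, adjusted p = 1.78e-06) in PDGFB tumors, while the difference of 0.40 between the models did not pass (SE 0.18, adjusted p = 0.119). Tnfrsf10b, the mouse death receptor of TRAIL, was also higher in both models. It had 7.85, 15.7, 20.4 and 6.47 FPKM in NRAS tumors 1 to 4 and 2.70, 1.51, 3.61 and 2.43 FPKM in PDGFB tumors 1 to 4, against 0.502, 0.443 and 0.562 FPKM in normal brains 1 to 3. The 3 groups do not overlap. Tnfrsf10b changed by 3.05 (SE 0.34, adjusted p = 6.54e-05) in NRAS tumors and by 1.21 (SE 0.34, adjusted p = 0.0105) in PDGFB tumors against normal brain, and NRAS tumors exceeded PDGFB tumors by 1.83 (SE 0.32, adjusted p = 0.00251). The change in PDGFB tumors did not pass when the range of title numbers was a covariate (1.16, adjusted p = 0.147). Tnfrsf10b was highest in NRAS tumor 3, whose macrophage marker sum is the highest of its group. The next highest was NRAS tumor 2, whose T cell and macrophage marker sums are the lowest. A link between Tnfrsf10b and these cells was not tested.

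Fas, the receptor of Fas ligand, was higher in NRAS tumors than in both other groups. It had 8.21, 17.7, 35.01 and 11.6 FPKM in NRAS tumors 1 to 4 and 1.66, 1.66, 1.61 and 3.03 FPKM in PDGFB tumors 1 to 4, against 1.81, 1.23 and 1.68 FPKM in normal brains 1 to 3. PDGFB tumors and normal brains overlap, with PDGFB tumor 4 above the others. The log2 fold change in NRAS tumors was 2.71 (SE 0.38, adjusted p = 0.000227) against normal brain and 2.51 (SE 0.35, adjusted p = 0.00102) against PDGFB tumors. Tnfrsf21 (DR6, a death domain receptor that neurons and oligodendrocytes express) had 20.4 to 38.4 FPKM in NRAS tumors and 31.9 to 39.0 FPKM in PDGFB tumors, against 27.8 to 30.8 FPKM in normal brains, and passed in no comparison. Tnfrsf25 (DR3, the receptor of Tnfsf15) averaged 1.73 ± 0.597 FPKM in NRAS tumors (SD, n = 4) and 0.770 ± 0.113 FPKM in PDGFB tumors (SD, n = 4), against 2.12 ± 0.326 FPKM in normal brains (SD, n = 3). It was lower in PDGFB tumors than in normal brain by a log2 fold change of −0.81 (limma SE 0.18, adjusted p = 0.00252), which did not pass when the range of title numbers was a covariate (−0.70, adjusted p = 0.0876).

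**Figure D4:**
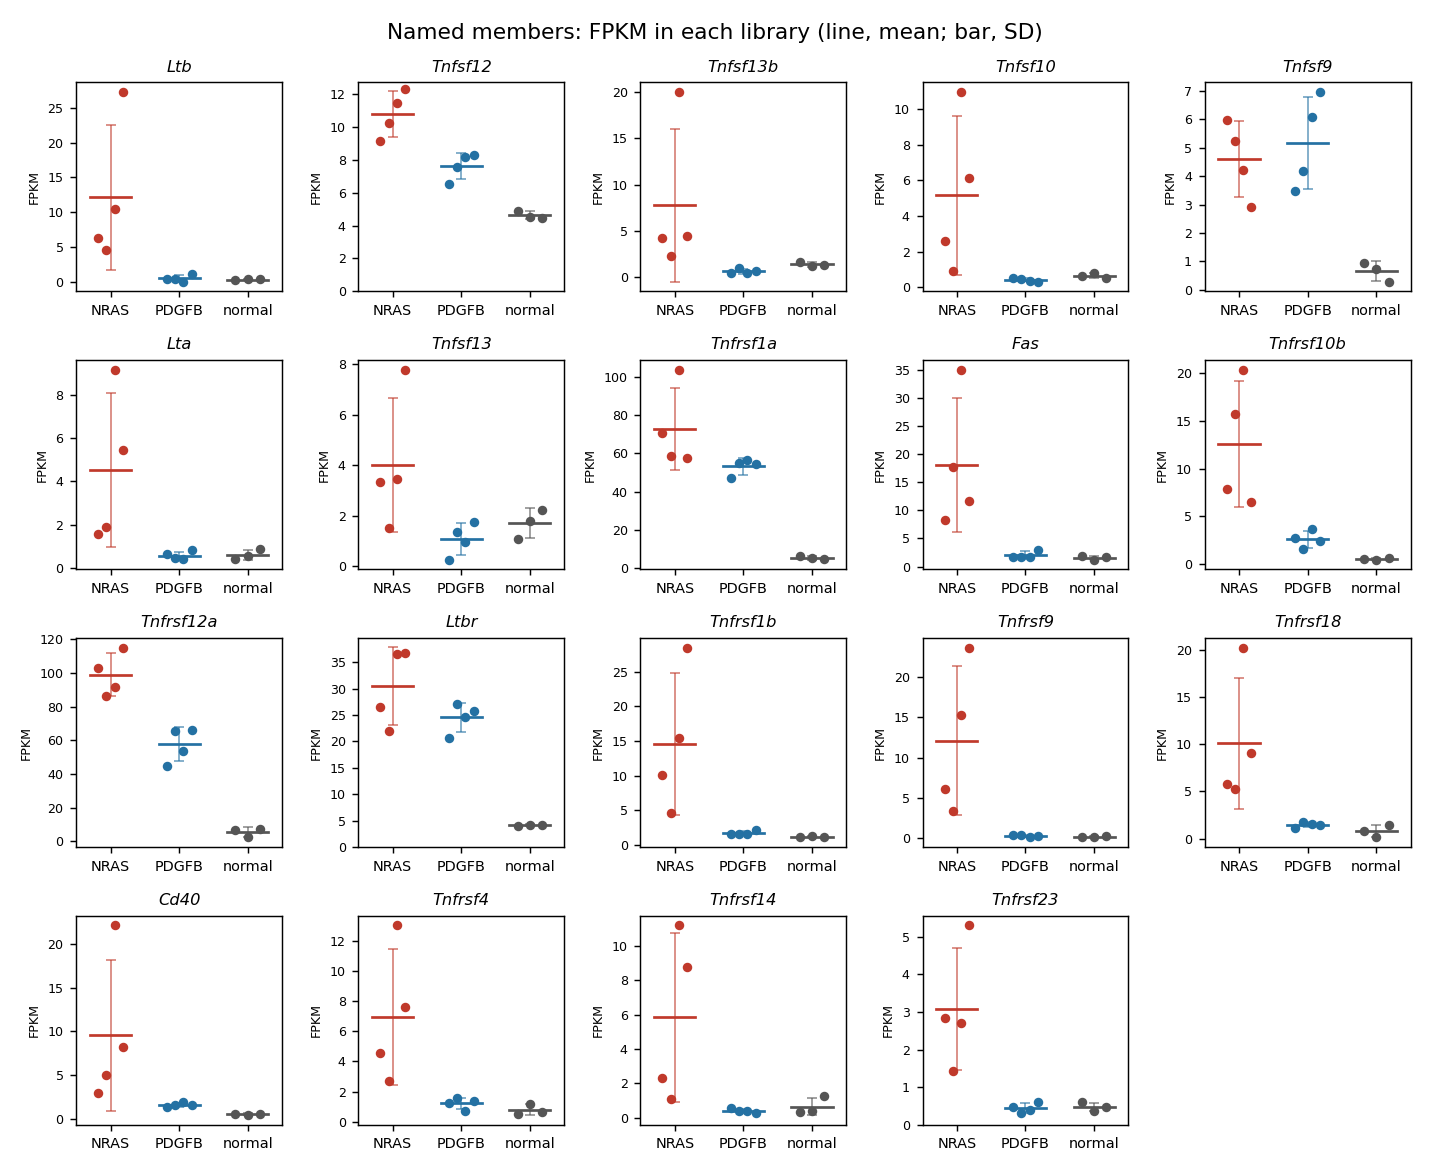
FPKM of the 19 members that passed the threshold, changed by at least 1 on the log2 scale and averaged at least 2 FPKM in a group, with a point per library, a line for the group mean and a bar for the SD, NRAS tumors on the left, then PDGFB tumors, then normal brains. Tnfrsf12a, Tnfrsf1a and Ltbr are raised in all 8 tumors, whereas for Ltb, Tnfrsf9 and Fas the points of the PDGFB tumors lie level with those of the normal brains.

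Among the TRAF-binding receptors, Tnfrsf12a (Fn14, the receptor of TWEAK) and Ltbr (the lymphotoxin β receptor) were higher in both models. Tnfrsf12a had 103, 86.1, 91.8 and 115 FPKM in NRAS tumors 1 to 4 and 45.0, 65.7, 53.9 and 66.3 FPKM in PDGFB tumors 1 to 4, against 6.73, 2.30 and 7.43 FPKM in normal brains 1 to 3. The 3 groups do not overlap. Its log2 fold change against normal brain was 4.05 (SE 0.29, adjusted p = 3.82e-06) in NRAS tumors and 3.28 (SE 0.29, adjusted p = 1.2e-05) in PDGFB tumors. Between the models it differed by 0.78 (SE 0.27, adjusted p = 0.0509), which passed the threshold in 6 other settings, 2 of which change only the scaling. Ltbr had 26.6, 21.9, 36.6 and 36.7 FPKM in NRAS tumors 1 to 4 and 20.6, 27.1, 24.7 and 25.7 FPKM in PDGFB tumors 1 to 4, against 3.89, 4.24 and 4.13 FPKM in normal brains 1 to 3. Tumors of both models lie above all normal brains and overlap each other. For Ltbr the change was 2.60 (SE 0.18, adjusted p = 3.63e-06) in NRAS tumors and 2.32 (SE 0.18, adjusted p = 5.89e-06) in PDGFB tumors, with 0.28 between the models (SE 0.17, adjusted p = 0.25). Cd27, Ltbr and Tnfrsf1a lie within 129.9 kb on chromosome 6 (125232622 to 125362484), but Cd27, a costimulatory receptor of lymphocytes, had only 0.0587 to 0.181 FPKM in PDGFB tumors, against 0.0643 to 0.202 FPKM in normal brains.

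Tnfrsf9, Tnfrsf1b, Cd40, Tnfrsf18, Tnfrsf4 and Tnfrsf14 were higher in NRAS tumors than in both other groups. Tnfrsf9 and Tnfrsf14 passed the filter only with NRAS tumors, so the direction of their calls was largely set by it. Tnfrsf9 (CD137, a costimulatory receptor of activated T and NK cells) had 6.08, 3.36, 15.3 and 23.6 FPKM in NRAS tumors 1 to 4 and 0.380, 0.373, 0.145 and 0.351 FPKM in PDGFB tumors 1 to 4, against 0.236, 0.115 and 0.282 FPKM in normal brains 1 to 3. Every NRAS tumor is above every other library, and NRAS tumors 3 and 4 are the highest. Its log2 fold change was 3.12 (SE 0.47, adjusted p = 0.000328) against normal brain and 3.01 (SE 0.44, adjusted p = 0.00114) against PDGFB tumors. Tnfrsf1b (the TNF receptor of immune and endothelial cells) had 10.02, 4.54, 15.4 and 28.5 FPKM in NRAS tumors 1 to 4 and 1.53, 1.54, 1.60 and 2.08 FPKM in PDGFB tumors 1 to 4, against 1.20, 1.21 and 1.07 FPKM in normal brains 1 to 3. The 3 groups do not overlap, although the PDGFB tumors lie close to the normal brains. The change of Tnfrsf1b was 2.60 (SE 0.42, adjusted p = 0.0005) against normal brain and 2.29 (SE 0.39, adjusted p = 0.00235) against PDGFB tumors. Cd40, which myeloid cells and B cells use to receive T cell help, had 3.004, 5.01, 22.1 and 8.20 FPKM in NRAS tumors 1 to 4 and 1.37, 1.62, 1.96 and 1.57 FPKM in PDGFB tumors 1 to 4, against 0.571, 0.436 and 0.638 FPKM in normal brains 1 to 3. All PDGFB tumors are above all normal brains, but their log2 fold change of 0.76 (SE 0.45) did not pass (adjusted p = 0.17). NRAS tumors exceeded normal brain by 2.45 (SE 0.45, adjusted p = 0.000981) and PDGFB tumors by 1.69 (SE 0.42, adjusted p = 0.0131).

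Tnfrsf18 (GITR) and Tnfrsf4 (OX40), costimulatory receptors of T cells, lie next to each other on chromosome 4 (156013843 to 156028895). Tnfrsf18 had 5.82, 5.23, 20.2 and 9.04 FPKM in NRAS tumors 1 to 4 and 1.13, 1.79, 1.59 and 1.38 FPKM in PDGFB tumors 1 to 4, against 0.799, 0.111 and 1.43 FPKM in normal brains 1 to 3. Tnfrsf4 had 4.59, 2.67, 13 and 7.61 FPKM in NRAS tumors 1 to 4 and 1.23, 1.61, 0.742 and 1.37 FPKM in PDGFB tumors 1 to 4, against 0.513, 1.21 and 0.674 FPKM in normal brains 1 to 3. For both genes NRAS tumor 3 is the highest library and NRAS tumor 4 the next, and the PDGFB tumors overlap with normal brains. Tnfrsf18 changed in NRAS tumors by 2.53 against normal brain (SE 0.39, adjusted p = 0.000396) and by 1.99 against PDGFB tumors (SE 0.36, adjusted p = 0.00328). Tnfrsf4 changed by 1.99 against normal brain (SE 0.38, adjusted p = 0.00113) and by 1.67 against PDGFB tumors (SE 0.35, adjusted p = 0.00592). Tnfrsf14 (HVEM, which binds Tnfsf14, Lta and the inhibitory receptor Btla) had 2.30, 1.05, 11.2 and 8.77 FPKM in NRAS tumors 1 to 4 and 0.560, 0.367, 0.368 and 0.267 FPKM in PDGFB tumors 1 to 4, against 0.30, 0.390 and 1.23 FPKM in normal brains 1 to 3. NRAS tumor 2 lies below normal brain 3, and NRAS tumors 3 and 4 are far above all others. Tnfrsf14 was higher in NRAS tumors by 1.74 against normal brain (SE 0.53, adjusted p = 0.0138, and 0.051 without normal brain 1) and by 1.94 against PDGFB tumors (SE 0.49, adjusted p = 0.0139). Btla was also higher in NRAS tumors, by 1.67 against normal brain (SE 0.35, adjusted p = 0.00195) and by 1.62 against PDGFB tumors (SE 0.32, adjusted p = 0.00484). Tnfrsf11a (RANK, the receptor of Tnfsf11) averaged 1.57 ± 0.764 FPKM in NRAS tumors and 0.474 ± 0.165 FPKM in PDGFB tumors, against 1.27 ± 0.420 FPKM in normal brains (SD, n = 4, 4 and 3). Its fall of −0.62 in PDGFB tumors against normal brain (limma SE 0.24, adjusted p = 0.0431) lost its call when any of the 7 libraries was left out (adjusted p = 0.0507 to 0.178). Tnfrsf19 (TROY, found on glia and progenitors) had 13.1 to 22.9 FPKM in NRAS tumors and 11.5 to 20.3 FPKM in PDGFB tumors, against 14.2 to 21.0 FPKM in normal brains.

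The decoy receptors were low. Tnfrsf23, a mouse decoy receptor of TRAIL, had 2.85, 1.42, 2.70 and 5.30 FPKM in NRAS tumors 1 to 4 and 0.474, 0.307, 0.382 and 0.619 FPKM in PDGFB tumors 1 to 4, against 0.60, 0.380 and 0.472 FPKM in normal brains 1 to 3. NRAS tumors lie above all other libraries, and the other groups overlap. No PDGFB tumor or normal brain reached 1 FPKM, so Tnfrsf23 passed the filter through NRAS tumors alone and had to differ. Its log2 fold change was 1.37 (SE 0.26, adjusted p = 0.00118) against normal brain and 1.41 (SE 0.24, adjusted p = 0.00235) against PDGFB tumors. Tnfrsf22, its neighbor and close relative on chromosome 7, averaged 1.69 ± 1.17 FPKM in NRAS tumors and 0.963 ± 0.340 FPKM in PDGFB tumors, against 0.548 ± 0.131 FPKM in normal brains (SD, n = 4, 4 and 3). The rise of 0.72 in NRAS tumors against normal brain (limma SE 0.27, adjusted p = 0.0359) was 0.45 without NRAS tumor 4 (adjusted p = 0.0484) and did not pass without any of the normal brains (adjusted p = 0.0679 to 0.112). Reads may be shared between Tnfrsf22, Tnfrsf23 and Tnfrsf26, which are alike in sequence. Tnfrsf11b (osteoprotegerin, the decoy of Tnfsf11) averaged 2.56 ± 1.85 FPKM in NRAS tumors and 1.94 ± 0.384 FPKM in PDGFB tumors, against 0.696 ± 0.0259 FPKM in normal brains (SD, n = 4, 4 and 3), and its rise of 0.92 in NRAS tumors (limma SE 0.33, adjusted p = 0.0323) did not pass without NRAS tumor 3 or 4 or without any of the normal brains (adjusted p = 0.0633 to 0.0804).

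The 15 members under the filter reached at most 5.77 FPKM, in Cd27 of NRAS tumor 4. They were fitted without a filter, over 19768 genes, of which 24.8% were higher and 25.8% lower in NRAS tumors when set against normal brain. In that comparison 9 of the 15 were higher, 1 was lower (Tnfrsf17) and 5 did not pass. Between PDGFB tumors and normal brain 1 was higher (Tnfsf11) and 1 lower (Tnfrsf17), where 21.4% of genes were higher and 25.7% lower, and between NRAS and PDGFB tumors 7 were higher and 0 lower (also 0 lower at an unadjusted limma p under 0.05), where 11.1% of genes were higher and 8.4% lower. Tnf itself, the founding ligand, had 0.963, 0.828, 3.31 and 5.09 FPKM in NRAS tumors 1 to 4 and 0.453, 0.276, 0.416 and 0.537 FPKM in PDGFB tumors 1 to 4, against 0.0502, 0.0489 and 0.0513 FPKM in normal brains 1 to 3. The 3 groups do not overlap, and NRAS tumors 3 and 4 are the highest. Tnf was higher in NRAS tumors by 1.57 (SE 0.36, adjusted p = 0.00532) against normal brain and by 1.14 (SE 0.34, adjusted p = 0.0404) against PDGFB tumors, and its change of 0.43 in PDGFB tumors did not pass (SE 0.36, adjusted p = 0.373). Fasl, the ligand of Fas made by cytotoxic lymphocytes, had 0.389, 0.374, 1.85 and 5.60 FPKM in NRAS tumors 1 to 4 and at most 0.0768 FPKM in PDGFB tumors, against at most 0.204 FPKM in normal brains. It did not pass against either group (adjusted p = 0.0642 against normal brain and 0.0639 against PDGFB tumors). Cd27 had 0.935, 0.499, 1.38 and 5.77 FPKM in NRAS tumors 1 to 4 and was higher than in normal brain by 1.24 (limma SE 0.40, adjusted p = 0.0267). Tnfsf11 (RANKL) had 0.565 to 1.22 FPKM in NRAS tumors and 0.193 to 0.497 FPKM in PDGFB tumors, against 0 to 0.0356 FPKM in normal brains, and was higher than in normal brain by 0.91 in NRAS tumors (limma adjusted p = 0.000348) and by 0.34 in PDGFB tumors (adjusted p = 0.041). Tnfsf14 (LIGHT, a ligand of Ltbr and Tnfrsf14) had 0.241 to 1.35 FPKM in NRAS tumors, was listed at 0 in 3 PDGFB tumors and had 0.0777 FPKM in PDGFB tumor 2, and was listed at 0 in all normal brains. Cd40lg, the ligand of Cd40 on helper T cells, had 0.106 to 0.505 FPKM in NRAS tumors and was listed at 0 in all PDGFB tumors and normal brains. The receptors of BAFF and APRIL, Tnfrsf13b, Tnfrsf13c and Tnfrsf17, stayed at or under 1.29 FPKM in every library. Tnfrsf8, the receptor of Tnfsf8, had 0.125 to 1.77 FPKM in NRAS tumors and 0.0472 to 0.235 FPKM in PDGFB tumors, against 0.367 to 0.872 FPKM in normal brains, and did not pass. The ligands Tnfsf4, Tnfsf15, Tnfsf18 and Cd70 reached at most 0.427 FPKM in any library, and the receptor Tnfrsf26 reached 2.59 FPKM in NRAS tumor 3.

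Ratios of receptor to ligand were taken from the levels in FPKM, which are per length, and have no test. The ratio of Tnfrsf12a to Tnfsf12 was 8.01 to 11.3 in NRAS tumors and 6.59 to 8.67 in PDGFB tumors, against 0.513 to 1.66 in normal brains. Receptor thus exceeded ligand in all 8 tumors, and by less in normal brains 1 and 3 (1.37 and 1.66). The ratio of Tnfrsf9 to Tnfsf9 was 1.01, 0.640, 3.62 and 8.14 in NRAS tumors 1 to 4 and 0.0238 to 0.109 in PDGFB tumors, against 0.158 to 1.01 in normal brains. In PDGFB tumors the ligand was higher than in normal brain, while the receptor overlapped with it. The ratio of Ltbr to Ltb was 1.34 to 4.88 in NRAS tumors and at least 23.1 in the 3 PDGFB tumors where Ltb was above 0, against 11.1 to 16.6 in normal brains. The ratio of Tnfrsf1a to Tnf was 11.4 to 73.2 in NRAS tumors and 102 to 199 in PDGFB tumors, against 88.1 to 124 in normal brains. For both of these pairs the NRAS tumors lie below all other libraries. In those other libraries the ligands are low, with Tnf at 0.0489 to 0.537 FPKM and Ltb at 0 to 1.11 FPKM, so their ratios rest on few reads. The ratio of Tnfrsf10b to Tnfsf10 was 1.05 to 17.4 in NRAS tumors and 3.04 to 9.30 in PDGFB tumors, against 0.529 to 1.01 in normal brains, so the models overlap and both lie above the normal brains. The ratio of Fas to Fasl was 2.08 to 47.4 in NRAS tumors and 21.6 and 40.5 in the 2 PDGFB tumors where Fasl was above 0, against 6.01 to 21.6 in normal brains. The NRAS tumors span the whole range of the normal brains for this pair. Outside the NRAS tumors Fasl, too, was low, at most 0.204 FPKM.

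The 4 NRAS tumors differed among themselves. Of the 21 members that exceeded normal brain in NRAS tumors, 14 had their highest levels in NRAS tumors 3 and 4, and the highest library was NRAS tumor 3 for 11, NRAS tumor 4 for 9 and NRAS tumor 1 for 1. The coefficient of variation within NRAS tumors ran from 12.9% to 106% over the 21, with a median of 68.8%, and the median over the 6 members higher in both models was 26.7%. T and NK cell markers are also highest in NRAS tumors 3 and 4, macrophage markers in NRAS tumors 3 and 1, and both are lowest in NRAS tumor 2. NRAS tumors 3 and 4 carry title numbers in the range of the PDGFB tumors (2038 to 2046), and NRAS tumors 1 and 2 in that of the normal brains (1834 to 1838). Within titles 1834 to 1838, where 20.5% of genes were higher, 9 of 15 tested members exceeded normal brain in NRAS tumors: Fas, Ltbr, Tnfrsf12a, Tnfrsf18, Tnfrsf1a, Tnfrsf1b, Tnfrsf4, Tnfsf12 and Tnfsf13b, by 0.80 to 3.99. Tnfrsf18 and Tnfrsf4 reached 1 FPKM in only 1 normal brain each, so there they passed the filter only with NRAS tumors. Within titles 2038 to 2046, where 10.9% of genes were higher in NRAS than in PDGFB tumors, 10 of 17 tested members were, among them Ltb by 3.68, Tnfrsf1b by 3.03 and Fas by 2.86 (adjusted p = 0.00139, 0.000549 and 0.00356). Ltb and Tnfsf13, both among the 10, reached 1 FPKM in fewer than 3 PDGFB tumors. They thus passed the filter there only with NRAS tumors, and the direction of Ltb was largely set by it. Without NRAS tumors 3 and 4, a choice made after the data were seen, 13 of 20 tested members in NRAS tumors exceeded normal brain (25% of genes) and 8 of 20 exceeded PDGFB tumors (5.7% of genes). Those 8 were Cd40, Fas, Ltb, Tnfrsf10b, Tnfrsf18, Tnfrsf1b, Tnfrsf4 and Tnfsf13b, by 0.91 to 2.17. Here, too, Ltb passed the filter only with NRAS tumors. Of the 13 above normal brain, Cd40, Ltb, Tnfrsf10b and Tnfsf9 reached 1 FPKM in no normal brain. Their direction in that comparison was largely set by the filter. No title range holds both PDGFB tumors and normal brains, so number range and group cannot be told apart in that comparison.

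Of 15 genes of death signaling, which acts downstream of these receptors, 12 were higher and 1 lower in NRAS tumors than in normal brain (median 1.81), 8 higher and 2 lower in PDGFB tumors than in normal brain (median 1.18), and 9 higher and 1 lower in NRAS than in PDGFB tumors (median 0.74). Among all genes tested, 32% were higher in the first of these comparisons, 29.3% in the second and 14.3% in the third. Mlkl, which executes necroptosis, changed by 4.47 in NRAS tumors and 2.65 in PDGFB tumors against normal brain (SE 0.53 each, adjusted p = 9.45e-05 and 0.00159), and Ripk3, the kinase that activates it, by 3.34 in NRAS tumors and 1.24 in PDGFB tumors (SE 0.24 each, adjusted p = 3.82e-06 and 0.00113). Casp8, the initiator caspase of death receptors, was higher by 2.88 in NRAS tumors (SE 0.26, adjusted p = 1.81e-05). Cyld, a deubiquitinase that restrains NF-κB, fell by −1.27 in NRAS tumors and −1.46 in PDGFB tumors (adjusted p = 0.000344 and 0.000146). Between the models Ripk3 was higher in NRAS tumors by 2.09, Birc3, an inhibitor of apoptosis, by 1.95 and Mlkl by 1.82 (adjusted p = 0.000261, 0.00464 and 0.0202), while Diablo, a mitochondrial antagonist of such inhibitors, was lower by −0.86 (adjusted p = 0.00282).

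Of 23 genes of the NF-κB pathway, 10 were higher and 0 lower in NRAS tumors than in normal brain, 9 higher and 2 lower in PDGFB tumors than in normal brain, and 9 higher and 1 lower in NRAS than in PDGFB tumors, with medians of 0.43, 0.32 and 0.32 in that order. The 10 and 11 of 23 called either way in NRAS and PDGFB tumors against normal brain are a smaller share than the 62.3% and 58.5% of all genes, while 26.6% of all genes were called between the models. Counted as higher only, the 10 and 9 of 23 stand beside 32% and 29.3% of all genes. The 9 higher between the models stand beside 14.3%. At an unadjusted limma p under 0.05 as well, 0 NF-κB genes in NRAS tumors were below normal brain, and 0 TRAF adaptors were lower in either model. Nfkb2, the precursor of the noncanonical subunit p52, changed by 3.46 in NRAS tumors and 1.34 in PDGFB tumors against normal brain (SE 0.31 each, adjusted p = 1.54e-05 and 0.00331), and differed by 2.12 between the models (SE 0.29, adjusted p = 0.000837). Its partner Relb was higher by 2.13 in NRAS tumors and 1.45 in PDGFB tumors (SE 0.26 each, adjusted p = 0.000109 and 0.000816), and Nfkbie, an inhibitor of NF-κB, by 2.18 in NRAS tumors and 1.10 in PDGFB tumors (SE 0.30 each, adjusted p = 0.000196 and 0.00819). Tnfaip3, the inhibitor A20, and Nfkbia were higher in NRAS than in PDGFB tumors by 1.54 and 1.25 (adjusted p = 0.0169 and 0.0147), and Tab1, an activator of the kinase Map3k7, was lower by −0.59 (adjusted p = 0.00817).

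Of 8 TRAF adaptor genes, 6 were higher and 0 lower in each model than in normal brain, and 1 was higher and 1 lower in NRAS than in PDGFB tumors. As for the other lists, 32% of all genes were higher in NRAS tumors and 29.3% in PDGFB tumors against normal brain, and 14.3% were higher and 12.2% lower between the models. The median of the TRAF genes was 1.10 in NRAS tumors and 0.92 in PDGFB tumors against normal brain, and 0.12 between the models. Traf4 changed by 2.29 in NRAS tumors and 3.20 in PDGFB tumors against normal brain (SE 0.31 each, adjusted p = 0.000182 and 2.21e-05) and was the adaptor lower in NRAS than in PDGFB tumors (−0.91, adjusted p = 0.0366). Traf1, which binds Tnfrsf1b and Tnfrsf9, was higher in NRAS tumors by 1.60 against normal brain and 1.89 against PDGFB tumors (adjusted p = 0.00568 and 0.00476). Of 5 genes for ligand shedding and processing, 5 were higher in NRAS tumors and 3 in PDGFB tumors than in normal brain (medians 1.60 and 0.61), and 2 were higher and 1 lower in NRAS than in PDGFB tumors (median 0.36). Adam17, the protease that sheds TNF, was higher by 1.60 in NRAS tumors and 1.37 in PDGFB tumors (SE 0.22 each, adjusted p = 0.000211 and 0.000466). Its cofactor Rhbdf2 was higher in NRAS tumors by 2.56 against normal brain and 2.18 against PDGFB tumors (adjusted p = 0.000166 and 0.0011), and the related Rhbdf1 against normal brain by 1.74 in NRAS tumors and 2.21 in PDGFB tumors (adjusted p = 1.98e-05 and 4.18e-06). Of 6 genes with other symbols (5 family members and the adaptor Edaradd), 4 were tested, with 1 higher and 1 lower in NRAS tumors and 1 higher and 2 lower in PDGFB tumors than in normal brain, and 0 called between the models, also at an unadjusted limma p under 0.05. Eda2r, a receptor of ectodysplasin known as a p53 target, was higher by 3.52 in NRAS tumors and 2.87 in PDGFB tumors (SE 0.37 each, adjusted p = 4.07e-05 and 0.000122), and Ngfr, the p75 neurotrophin receptor, was lower by −0.75 in NRAS tumors and −0.93 in PDGFB tumors (SE 0.22 each, adjusted p = 0.0117 and 0.00385).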

How the data were processed

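Bulk RNA sequencing libraries of 4 NRAS tumors, 4 PDGFB tumors and 3 normal brains were grouped by their titles. The authors deposited FPKM values in 1 table, in which fragment numbers are divided by transcript length and library size. TopHat2 2.0.13, Cufflinks 2.2.1 and mm10 are named, per the submitters' processing notes; for settings, annotation and strand handling, nothing is stated there. The table has no read counts, so absolute depth is unknown, and a value of 0 can be a failed estimate. FPKM shares a total, so abundant transcripts in a library lower all its other values.

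Of 24347 rows, 27 whose names had turned into dates were left out. Positions come from GENCODE M21, where all 41 members were matched. A group-means model of the 11 libraries was fitted in limma 3.58.1 (R 4.3.3, eBayes with trend) to log2(FPKM + 1) of the 14491 genes that reached 1 FPKM in 3 or more libraries. Two-sided p-values were adjusted by the Benjamini-Hochberg method across the whole set. Fold changes of low genes come out too small on this scale. The fit was tested on simulated data. Full values are given for members past the threshold of 0.05 that change by at least 1 (log2) and average at least 2 FPKM in a group, which gave 19 members. For each pathway list up to 3 called genes with the largest change are named, and other genes only where a member's ligand, receptor or role calls for it. A listed gene is not reported here. Tnfrsf19, Tnfrsf21 and the other members given by range complete the account.

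The members, roles and lists were chosen with earlier results of these data known. Alternatives covered the pseudocount, the filter, the scaling, limma without trend, array weights, title number series, a replicate block and leaving out each library; leaving out NRAS tumors 3 and 4 together was added after the data were seen. Whether replicates came from separate animals is not in the labels, so p-values cover only the spread among these libraries, which may be technical. By the titles, normal brain 1 matches NRAS tumor 2 and normal brain 3 matches PDGFB tumor 1. The labels do not say that a shared replicate number marks an animal. The main fit treats the matched libraries as independent.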

Additional observations from a re-analysis of the deposited data

Results flagged for a closer look

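A library stood far from the rest of its group of 4 for 6 of 52 combinations of tested member and tumor group. The rule marks about 1 in 20 groups by chance. Fas had 3.03 FPKM and Tnfrsf1b 2.08 FPKM in PDGFB tumor 4, in both cases the highest of the PDGFB tumors. Tnfrsf9 had 0.145 FPKM in PDGFB tumor 3, the lowest of its group. Among NRAS tumors, Tnfrsf22 had 3.44 FPKM in NRAS tumor 4, while Tnfsf13b had 20.02 FPKM and Tnfsf8 had 2.21 FPKM in NRAS tumor 3, each the highest of its group.

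For 6 members the fold changes of NRAS and PDGFB tumors against normal brain had opposite signs, at least 1 of them passed, and the limma test of NRAS against PDGFB tumors passed too. The log2 difference was 1.60 for Lta (adjusted p = 0.0107), 0.76 for Tnfrsf11a (0.0261), 1.94 for Tnfrsf14 (0.0139), 1.41 for Tnfrsf23 (0.00235), 1.78 for Tnfsf10 (0.0134) and 2.02 for Tnfsf13b (0.00804). Of their changes in PDGFB tumors against normal brain, only that of Tnfrsf11a passed. Tnfsf13 also had opposite signs (0.77 in NRAS tumors and −0.41 in PDGFB tumors) and a difference of 1.19 between the models (adjusted p = 0.0312), but neither change against normal brain passed. No explanation was tested.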

How the results depend on the processing

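Calls are counted at an adjusted p under 0.05 in limma. Of 21 members called in NRAS tumors against normal brain, 16 kept their call in every setting that tested them (20 to 23 settings), as did 4 of 8 in PDGFB tumors against normal brain (22) and 13 of 18 in NRAS against PDGFB tumors (17 to 23). Only 8 of these 16 and 7 of these 13 were tested in all 23 settings, since the others failed the filter in some. Of the 16, Cd40, Lta, Ltb, Tnfrsf10b, Tnfrsf23, Tnfrsf9, Tnfsf8 and Tnfsf9 were not tested within title numbers 1834 to 1838. Lta, Tnfrsf9, Tnfrsf22, Tnfrsf23, Tnfsf8 and Tnfsf10 fail the filter, and so were not tested, without NRAS tumors 3 and 4. Leaving out 1 library at a time gave 18 to 22, 7 to 10 and 14 to 19 members for the same 3 comparisons. Without NRAS tumors 3 and 4 the counts were 13 in NRAS tumors against normal brain and 8 between the models, and 1227 genes in all were called between the models (3852 with all libraries). Within title numbers 1834 to 1838, 9 members and 5817 of all genes were called (9023 over all libraries), and within 2038 to 2046, 10 members; these settings test fewer members (15 and 17), since fewer libraries can reach 1 FPKM. A filter of 3 FPKM tested 17 members and called 11 between the models. Array weights called 15 members in PDGFB tumors against normal brain and 5793 genes between the models; the cause was not tested. Adding the title number series to the model as a covariate left 16 members higher in NRAS tumors against normal brain (21 without it). Tnfrsf11b, Tnfrsf14, Tnfrsf22, Tnfsf10 and Tnfsf13b lost their calls there, and 7219 genes were called (9023 without it). Between the models the same fit called 19 members (18 without it) and 3798 genes (3852 without it). In PDGFB tumors against normal brain it called 4768 genes (8470 without it). Of the members, 4 were higher and 6 lower in PDGFB tumors against normal brain (6 and 2 without it). Tnfrsf9 turned to −1.74 (adjusted p = 0.00568) from a change of 0.11 that had not passed, Lta (−1.62), Tnfrsf14 (−2.27), Tnfsf10 (−2.04) and Tnfsf13b (−1.90) also became lower calls, and Tnfrsf10b, Tnfsf12 and Tnfrsf25 lost theirs; no series holds both of these groups, and the cause was not tested. Same-numbered libraries deviated from their group means with correlations of −0.499 to 0.158. In groups of 3 or 4 libraries this cannot show whether any are paired. A replicate block called 19, 8 and 18 members in the same order. The matches given in the titles join different replicate numbers and were not modelled. Low values rest on few reads, and 11 of the 26 tested members had no normal brain at 1 FPKM.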
